A study of Mus musculus with 6 samples.

Results

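The VEGF family of mouse bone marrow is described here through 9 genes, of 19938 tested. They are the ligands Vegfa, Vegfb, Vegfc and Pgf, the receptor tyrosine kinases Flt1, Kdr and Flt4, and the neuropilins Nrp1 and Nrp2. A row of the deposited table was taken when its only listed gene symbol was one of these. Each gene had 1 such row and no row shared with another gene, so all 9 were measured. One row sums up a gene's transcripts, so secreted and membrane-bound forms, such as those of Flt1 and the neuropilins, were not separated.

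Vascular endothelial growth factors are secreted dimers that drive the growth and permeability of blood and lymphatic vessels. Vegfa acts mainly through the receptor kinase Kdr, with Flt1 binding the same ligand tightly as a weak kinase and partly as a soluble trap. Pgf and Vegfb bind Flt1, and Vegfc acts through Flt4, the receptor of lymphatic and sinusoidal endothelium. Neuropilins have no kinase of their own and serve both VEGF ligands and class 3 semaphorins as co-receptors.

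The series compared bone marrow cells that make stem cell factor with unselected bone marrow by Affymetrix microarray (Mouse Gene 1.0 ST), with 3 arrays in each of 2 groups. Scf-GFP+ cells came from young adult C57BL/6 mice heterozygous for a green fluorescent protein knocked into the Scf gene (symbol Kitl) and were sorted in 2 passes. Whole marrow cells came from wild-type young adult C57BL/6 mice, so genotype, cell population and sorting changed together. Each array had RNA of 5000 cells, amplified before labelling, and no agent was given. The reporter marks any cell that reads the Scf gene, so the sorted cells need not be of a single type.

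Values below are log2 values from robust multi-array averaging (RMA), and a difference is Scf-GFP+ minus whole marrow. A gene was called when the limma adjusted p was below 0.05 and the difference at least 2-fold. Kitl, the sort gene, lay at 10.16 to 10.83 on the Scf-GFP+ arrays and at 4.56 to 5.05 on the whole marrow arrays, which checks the labels. All 13 perivascular stromal markers were called higher, against 9.01% of all genes tested. Kitl is 1 of the 13, and its call follows from the sort. Also called higher were 5 of 6 measured osteoblast markers and 4 of 9 pericyte and smooth muscle markers. All 10 pan-haematopoietic markers were called lower, against 7.89% of all genes tested. Among the Scf-GFP+ arrays, replicate 1 was highest for all 10 neutrophil markers. They averaged 9.60 there, 5.89 and 6.07 on replicates 2 and 3, and 12.07 to 12.14 in whole marrow. The size of this gap varied by gene. S100a8 measured 12.44, 6.01 and 6.49 on Scf-GFP+ replicates 1, 2 and 3. Mpo, at 6.57, 6.20 and 6.33, and Elane, at 5.92, 5.73 and 5.52, differed little. Scf-GFP+ replicates 1 and 2 carried Xist, the RNA of the silenced X chromosome in females (11.50 and 11.81), while the other 4 arrays did not exceed 5.10. Y-linked Eif2s3y lay at 4.41 and 3.72 on those replicates, 8.23 on Scf-GFP+ replicate 3 and 7.33 to 7.97 in whole marrow. The labels give no sex, and this split runs partly along the groups. With a term for the split, the group difference is that of Scf-GFP+ replicate 3 alone against whole marrow. The RNA aliquots are called independent in the design text, without saying whether they came from separate animals. The tests therefore rest on the variation among these arrays. Among the Scf-GFP+ arrays it includes the Xist split, and the rest may be technical.

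The 250 bases before the RefSeq start (assembly GRCm38.p6) are printed for Vegfc, Nrp1 and Nrp2, the members with the largest differences, and for Vegfb, a ligand that was not called. Capitals mark the GC box GGGCGG, a binding motif of Sp-family factors, on either strand, and adjoining boxes run together.
Vegfc (chr8:54077282-54077531, + strand): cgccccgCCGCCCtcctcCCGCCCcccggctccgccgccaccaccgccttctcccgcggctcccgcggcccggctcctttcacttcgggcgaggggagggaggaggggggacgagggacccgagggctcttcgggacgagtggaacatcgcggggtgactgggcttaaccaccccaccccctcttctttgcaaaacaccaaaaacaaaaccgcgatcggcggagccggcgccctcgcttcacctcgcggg
Nrp1 (chr8:128358823-128359072, + strand): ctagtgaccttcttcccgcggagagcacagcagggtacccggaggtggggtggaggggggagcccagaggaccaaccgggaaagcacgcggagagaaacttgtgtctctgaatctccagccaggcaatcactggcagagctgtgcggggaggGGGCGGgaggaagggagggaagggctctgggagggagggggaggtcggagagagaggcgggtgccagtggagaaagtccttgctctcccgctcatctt
Nrp2 (chr1:62703067-62703316, + strand): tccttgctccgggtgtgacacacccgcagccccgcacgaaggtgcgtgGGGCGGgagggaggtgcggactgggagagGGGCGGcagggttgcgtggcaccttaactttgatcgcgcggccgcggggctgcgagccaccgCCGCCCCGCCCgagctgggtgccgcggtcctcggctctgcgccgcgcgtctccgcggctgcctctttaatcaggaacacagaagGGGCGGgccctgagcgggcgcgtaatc
Vegfb (chr19:6987652-6987901, - strand): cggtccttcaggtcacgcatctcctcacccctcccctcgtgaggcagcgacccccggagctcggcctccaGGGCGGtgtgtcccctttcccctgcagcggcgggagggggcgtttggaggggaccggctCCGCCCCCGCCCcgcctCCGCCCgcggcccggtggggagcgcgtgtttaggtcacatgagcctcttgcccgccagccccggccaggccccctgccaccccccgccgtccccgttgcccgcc

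The 9 members have 11 listed starts, and 10 of these 11 windows held a GC box, against 32.7% of all 32851 windows of the table. Nrp2 had 5 boxes and Nrp1 had 1, although their differences were alike, and Vegfb had 4 without a call. The 11 member windows were 59.2% to 76.4% G and C, against a median of 52.4% over all windows. The hypoxia response core ACGTG, sought on both strands, was found in 1 member window, before the second listed start of Vegfa, and in 16.6% of all windows. TATAAA was present only before Flt1 among the members, 31 bases before the start, and in 12.4% of all windows. CCCNNGGG, the core bound by early B cell factors, was in the windows of Vegfc, Flt1 and Flt4, in both of Pgf and in the first of Vegfa, and in 11.8% of all. TAAACA, a forkhead core, was found only before Vegfb, against 12.0% of all windows. These letters did not set the called members apart, and a match is not a bound site.

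Scf-GFP+ cells held more transcript of 3 of the 4 ligands and of both neuropilins, while none of the 3 receptor kinases passed the test. Of the 9 members, 5 were called higher, against 9.01% of all genes, and none lower, against 7.89%. At an unadjusted limma p below 0.05 no member was lower either, against 19.6% of all genes. The median difference of the 9 was 1.59, beside -0.08 over all genes. All 3 Scf-GFP+ arrays lay above all whole marrow arrays for the same 5 genes, a pattern held by 19% of all genes. In a sorted or mixed sample, more cells that make a transcript and more of it per cell cannot be told apart.

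**Figure D1:**
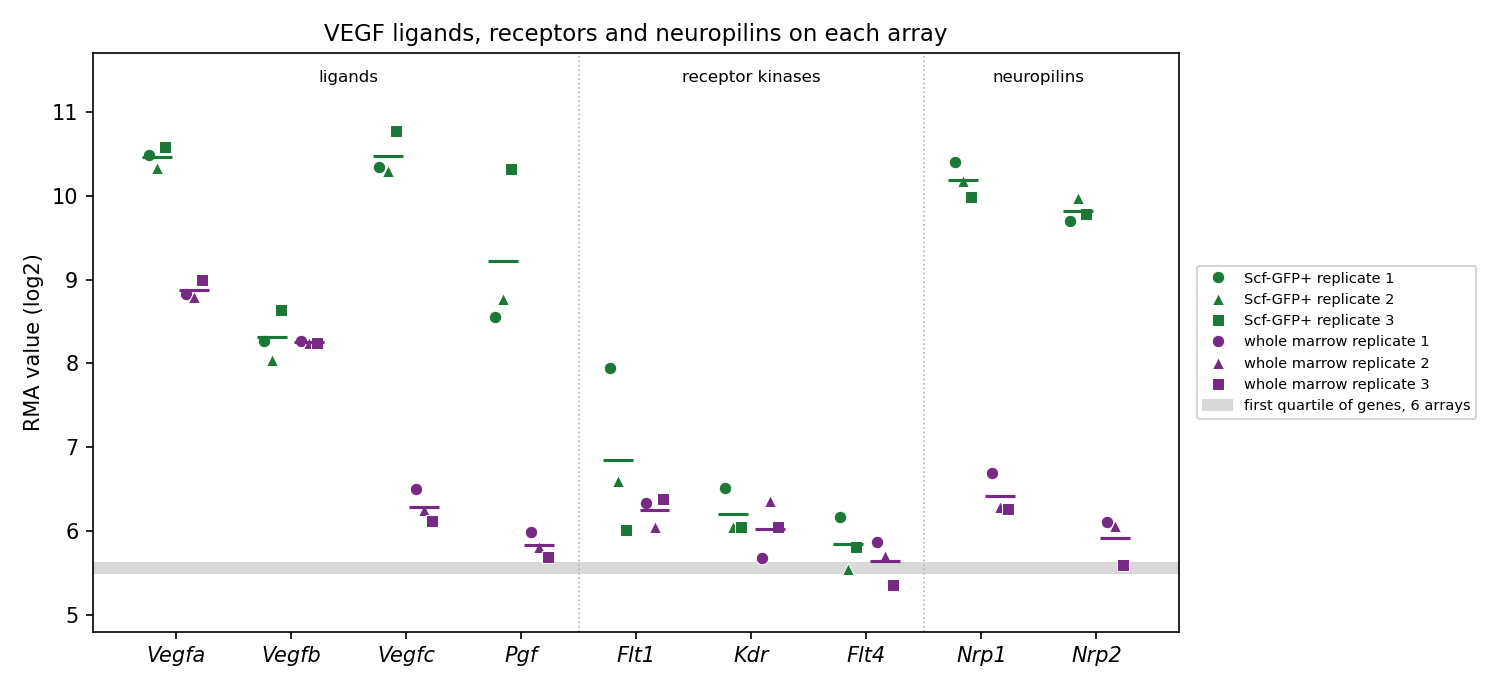
RMA value (log2, vertical axis) of each member on each of the 6 arrays, green for Scf-GFP+ and purple for whole marrow, with bars at the group means and a grey band at the first quartile of all genes (5.51 to 5.62). Vegfa, Vegfc, Pgf, Nrp1 and Nrp2 separate by group, while Vegfb and the receptor kinases overlap.

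Vegfc, the ligand of Flt4 and the main lymphatic growth factor, showed the largest difference. It measured 10.34, 10.30 and 10.77 on Scf-GFP+ replicates 1, 2 and 3 and 6.50, 6.25 and 6.12 on the whole marrow arrays. The lowest Scf-GFP+ array was thus 3.79 above the highest whole marrow array. The difference was 4.18 ± 0.17 (SE, n = 3 per group, limma adjusted p = 1.18e-05), or 18.1-fold, and 163rd from the top among all genes. Relative to the other genes of each array, Vegfc moved from percentile 36.0 to 43.4 in whole marrow to percentile 94.0 to 96.3 in Scf-GFP+ cells.

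Pgf, placental growth factor, is a ligand of Flt1 that does not bind Kdr. It measured 8.56, 8.77 and 10.32 on the Scf-GFP+ arrays and 5.99, 5.81 and 5.69 on the whole marrow arrays. Replicate 3 stood 1.55 above the next Scf-GFP+ array, yet even the lowest of them lay 2.57 above whole marrow. The difference was 3.39 ± 0.45 (SE, n = 3 per group, limma adjusted p = 0.00179), or 10.5-fold. It was 2.83 without Scf-GFP+ replicate 3 and 4.49 with a term for the Xist split, and the limma adjusted p lay between 1.17e-04 and 0.0109 over 17 alternatives.

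Vegfa, the central ligand of blood vessel growth, was already high in whole marrow. It measured 10.48, 10.33 and 10.58 on the Scf-GFP+ arrays and 8.83, 8.79 and 8.995 on the whole marrow arrays. The groups did not overlap, and Vegfa was steady within each, with a standard deviation (SD) of 0.13 and 0.11 (n = 3). The difference of 1.59 ± 0.12 (SE, limma adjusted p = 1.23e-04) corresponds to 3.02-fold. Its 95% interval, 1.31 to 1.88, lay wholly below those of Vegfc (3.77 to 4.59) and Pgf (2.32 to 4.45), and array values compress differences unequally between genes. Vegfa stood at percentile 82.2 to 83.6 of genes in whole marrow and at 94.2 to 95.6 in Scf-GFP+ cells.

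Vegfb, a ligand of Flt1 linked to heart and fat metabolism, did not differ detectably. It measured 8.27, 8.04 and 8.63 on the Scf-GFP+ arrays and 8.27, 8.24 and 8.24 on the whole marrow arrays. The whole marrow values fell inside the Scf-GFP+ range, and the difference was 0.06 with a 95% interval of -0.33 to 0.45 (limma adjusted p = 0.814). That interval leaves out a 2-fold difference in either direction.

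Both neuropilins changed by a like amount. Nrp1, a co-receptor of Vegfa and of Sema3a, measured 10.40, 10.17 and 9.99 on the Scf-GFP+ arrays and 6.70, 6.29 and 6.27 on the whole marrow arrays. The difference was 3.77 ± 0.17 (SE, n = 3 per group, limma adjusted p = 1.55e-05), or 13.6-fold. Nrp2, a co-receptor of Vegfc and of Sema3f, measured 9.70, 9.97 and 9.78 on the Scf-GFP+ arrays and 6.11, 6.06 and 5.60 on the whole marrow arrays. The difference was 3.89 ± 0.17 (limma adjusted p = 1.33e-05), or 14.8-fold. The arrays of the groups were parted by 3.29 for Nrp1 and 3.58 for Nrp2, several times the spread within either group (SD 0.14 to 0.28). The intervals of the differences, 3.36 to 4.18 and 3.49 to 4.29, overlap, so these arrays do not order them.

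**Figure D2:**
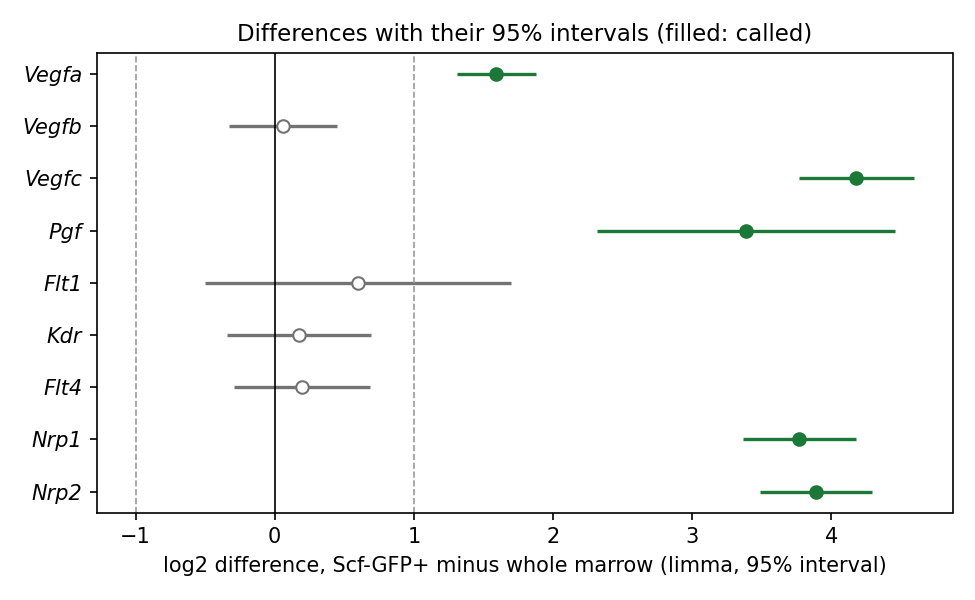
Difference of each member in log2 units (horizontal axis) with limma's 95% interval, filled where called; dashed lines mark a 2-fold difference in either direction. The intervals of Vegfb, Kdr and Flt4 lie between the dashed lines, that of Flt1 reaches 1.70, and those of the 5 called members start at 1.31 or higher.

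None of the 3 receptor kinases was called in limma, and none had an unadjusted p below 0.05. Kdr, the main signalling receptor of Vegfa on endothelium, measured 6.51, 6.05 and 6.05 on the Scf-GFP+ arrays and 5.68, 6.36 and 6.05 on the whole marrow arrays. Flt4, the receptor of Vegfc, measured 6.17, 5.55 and 5.82 against 5.88, 5.70 and 5.36. The groups overlapped for both genes, with differences of 0.17 (95% interval -0.34 to 0.69, limma adjusted p = 0.599) and 0.20 (-0.29 to 0.68, limma adjusted p = 0.523). Both intervals leave out a 2-fold difference, although values this near the first quartile of all genes are in a range where arrays lose resolution.

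Flt1, the receptor of Vegfa, Vegfb and Pgf, differed mainly among the Scf-GFP+ arrays. It measured 7.95, 6.60 and 6.02 there and 6.33, 6.05 and 6.38 in whole marrow. Replicates 1 and 2 lay above every whole marrow array and replicate 3 below all of them. The difference of 0.60 (95% interval -0.50 to 1.70, limma adjusted p = 0.393) does not leave out a 2-fold difference. It was 0.05 without Scf-GFP+ replicate 1, 1.02 without replicate 3 (limma adjusted p = 0.130) and -0.24 with a term for the Xist split, with limma adjusted p between 0.130 and 1 over 17 alternatives. An exact 2-sided permutation test over the 6 arrays cannot go below p = 0.1 in this design, the value that each of the 5 called members reached.

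Among the Scf-GFP+ arrays, all 4 ligands were highest on replicate 3 and all 3 receptor kinases on replicate 1, while 34.3% of all genes peaked on replicate 3 and 33.2% on replicate 1. Flt1 and Pgf had the widest spread, with SDs of 0.99 and 0.96 against a median of 0.17 over all genes, wider than 98.9% and 98.8% of them. A gap as large as that of Flt1 on replicate 1, 1.35 above the next array, was found for 86 genes, and one as large as that of Pgf on replicate 3 for 30 genes. Vegfa differed by only 0.25 between its highest and lowest Scf-GFP+ array. Nrp1, highest on replicate 1, and Nrp2, highest on replicate 2, spanned 0.41 and 0.27.

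Of 21 measured endothelial markers, 15 were lowest on Scf-GFP+ replicate 3, as Flt1 was, against 32.4% of all genes. Replicate 3 was highest for 4 of the 21, among them Eng, endoglin, at 7.83, 7.81 and 8.04. Another 10 peaked on replicate 1, as Flt1 did, and 7 on replicate 2, against 33.2% and 32.5% of all genes. Cdh5 peaked on replicate 2, at 7.54, 8.09 and 6.55 on replicates 1, 2 and 3. These 21 markers averaged 7.29, 7.20 and 6.85 on Scf-GFP+ replicates 1, 2 and 3 and 6.63 to 6.74 in whole marrow. Of them, 5 were called higher (23.8%), 3 lower (14.3%) and 13 neither, against 9.01% higher and 7.89% lower of all genes. Ptprb, a phosphatase of the endothelial surface that is not among the 21, measured 8.70, 7.27 and 6.80 on the Scf-GFP+ arrays, and Tek, the angiopoietin receptor, 6.82, 6.47 and 5.86. Emcn, endomucin, was higher by 2.20 ± 0.18 (limma adjusted p = 1.96e-04), while Pecam1, shared by endothelium and blood cells, was lower by -1.90 ± 0.26 (limma adjusted p = 0.00200). Of the 21, none lay below the first quartile on all Scf-GFP+ arrays. Of 5 lymphatic endothelial markers none was called in limma, and 3 were lower at an unadjusted p below 0.05, against 19.6% of all genes. Prox1, which defines that lineage, lay below the first quartile on every Scf-GFP+ array. Replicate 1, where Flt1 was highest, also carried the neutrophil transcripts given above. The 9 monocyte and macrophage markers averaged 6.72 on replicate 1, 5.92 and 6.02 on replicates 2 and 3, and 8.58 to 8.74 in whole marrow. They did not move as a class among the Scf-GFP+ arrays. Lyz2 (9.43, 5.03 and 5.38) and Ctss (7.11, 5.57 and 6.06) were highest on replicate 1. Csf1r (5.96, 6.27 and 6.21) and Cd68 (7.12, 7.63 and 7.77) were lowest there. The part of endothelial, neutrophil or monocyte transcripts in the values of Flt1, Kdr and Flt4 was not tested.

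**Figure D3:**
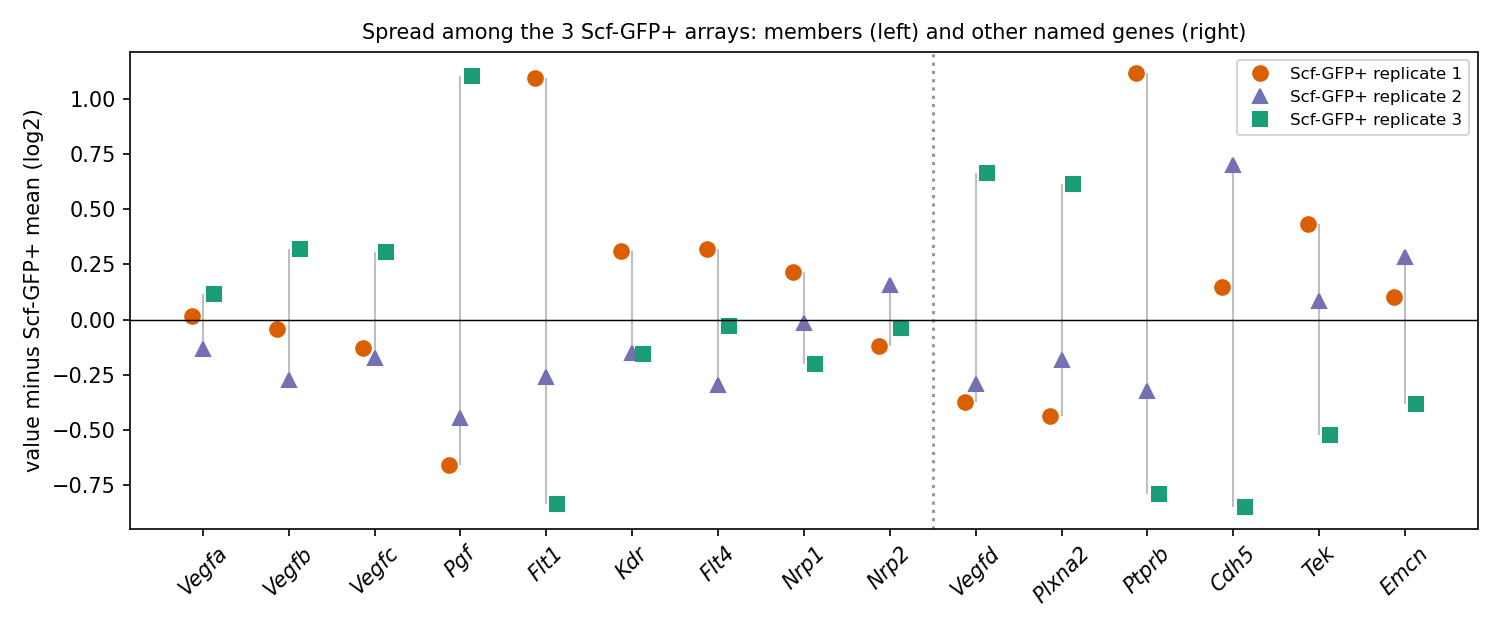
Value on each Scf-GFP+ array minus the mean of the 3 (log2, vertical axis) for the 9 members (left of the dotted line) and for 6 other genes chosen after their values were seen (right). Pgf stands out on replicate 3 and Flt1 on replicate 1, where Ptprb is also highest, while Emcn and Cdh5 are highest on replicate 2.

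Of 10 genes that process VEGF ligands, counted together with the ligand Vegfd, 2 were called (20.0%, both higher), near the 16.9% of all genes called in either direction. At an unadjusted limma p below 0.05, 4 of the 10 were higher and none lower, against 18.1% and 19.6% of all genes. Ccbe1, the cofactor that brings Vegfc to its protease, was higher by 1.76 ± 0.37 (SE, limma adjusted p = 0.0139). The proprotein convertase Pcsk5 was higher by 1.22 ± 0.13 (limma adjusted p = 6.35e-04). Adamts3, the protease that activates Vegfc, measured 7.36, 7.08 and 7.96 against 6.99, 7.58 and 6.91 and was not called. Its relative Adamts14 fell short of the fold rule at 0.95 (limma adjusted p = 0.00967) and met it at 1.11 without Scf-GFP+ replicate 2 (limma adjusted p = 0.00694). Its limma adjusted p ranged from 0.00339 to 1 in 17 alternatives, and its difference was 0.76 without Scf-GFP+ replicate 3. Vegfd, a second ligand of Flt4, measured 7.62, 7.71 and 8.66 on the Scf-GFP+ arrays and 6.69, 7.34 and 6.96 in whole marrow. Its difference of 1.00 ± 0.31 did not pass (limma adjusted p = 0.0567) and was 0.67 without Scf-GFP+ replicate 3, the highest array. It passed without the dimmest genes (0.0429) and with a trended, robust spread model (0.0499). Replicate 3 alone, in the fit with the Xist term, was 1.67 above whole marrow (limma adjusted p = 0.00992), and the highest value over 17 alternatives was 1.

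Genes that store VEGF in the matrix or free it from there were mostly higher. Of 21 measured, 12 were called higher (57.1%) and 3 lower (14.3%), against 9.01% and 7.89% of all genes. Their median difference was 1.38. Decorin (Dcn), biglycan (Bgn) and Sparc, matrix proteins, and the collagenase Mmp13 were higher by 6.05, 5.86, 5.38 and 5.89. Sulf1, which trims sulphate groups from the heparan chains that hold heparin-binding VEGF, was higher by 4.53 ± 0.12. Mmp14, a membrane-bound protease, was higher by 3.59 ± 0.11, and Ccn2, a matrix protein that binds VEGF, by 2.36 ± 0.44 (limma adjusted p = 0.00789). Those called lower were Mmp9, a gelatinase of neutrophils (-4.15 ± 0.46), the heparan-cleaving enzyme Hpse (-2.18 ± 0.37) and the angiogenesis inhibitor Thbs1 (-1.79 ± 0.20).

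Of 12 class 3 semaphorins and plexins, 3 were called higher (25.0%), against 9.01% of all genes. All 3 were plexins, the signalling partners of neuropilins. None of the 12 was called lower in limma, against 7.89% of all genes. At an unadjusted limma p below 0.05, 1 was lower, Sema3c at -0.31, against 19.6% of all genes. Plxna2 measured 9.50, 9.75 and 10.55 on the Scf-GFP+ arrays and 6.70, 6.24 and 6.35 in whole marrow, a difference of 3.50 ± 0.28 (limma adjusted p = 1.91e-04). Plxna1 was higher by 1.67 ± 0.15 and Plxnd1 by 1.39 ± 0.20. None of the 7 semaphorins was called.

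Receptor partners and trafficking genes were called higher in 11 of 25 cases (44.0%) and lower in 2 (8.0%). Over all genes these shares were 9.01% and 7.89%. The heparan sulphate carrier Sdc2 was higher by 6.01 ± 0.30, Igfbp7, a secreted binding protein of vessels, by 5.10 ± 0.15, and Dab2, an endocytic adaptor, by 3.86 ± 0.32 (1.96 with the mean of all its rows in place of the brightest). Grem1, best known as a BMP antagonist, was higher by 3.24 ± 0.14. Ptpn6, a phosphatase of blood cells, was lower by -3.50 ± 0.26. Itga9, an integrin subunit that can bind Vegfc, measured 8.89, 7.84 and 10.24 against 7.06, 6.44 and 7.59. The groups did not overlap, yet its difference of 1.96 ± 0.61 did not pass (limma adjusted p = 0.0557), and it was 2.54 without Scf-GFP+ replicate 2 (limma adjusted p = 0.0167) and 1.34 without replicate 3 (0.0832). It passed with the replicate number as a block (0.00742), without the dimmest genes (0.0398) and with the trended model (0.0426). Replicate 3 alone, in the fit with the Xist term, was 3.21 above whole marrow (limma adjusted p = 0.0135), the highest value over 17 alternatives being 0.655. Ptprb, at 1.48 ± 0.47 (limma adjusted p = 0.0615), was 1.87 without Scf-GFP+ replicate 3 (limma adjusted p = 0.0274), 0.92 without replicate 1 (0.0337, under 2-fold) and 0.69 with the Xist term (0.494). It passed without the dimmest genes (0.0448) and with the trended model (0.0459), and its highest value was 1.

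Of 49 signal transduction genes measured, 6 were called higher (12.2%) and 11 lower (22.4%), against 9.01% and 7.89% of all genes. The median of the list was 0.01. The phospholipases that VEGF and immune receptors use were split. Plcg1, the form downstream of Kdr, was higher by 1.55 ± 0.28 (limma adjusted p = 0.00674), and Plcg2, the form of blood cells, was lower by -3.38 ± 0.34 (limma adjusted p = 5.13e-04). The Src-family kinase Yes1 and the adaptor Gab1 were higher by 2.35 ± 0.29 and 2.04 ± 0.24. The kinases Ptk2b, Pik3cb and Prkcb were lower by -2.75, -2.66 and -2.51.

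Genes that respond to VEGF in endothelium were more often lower than higher. Of 26, 3 were called higher (11.5%) and 9 lower (34.6%), against 9.01% and 7.89% of all genes. At an unadjusted limma p below 0.05, 4 were higher and 16 lower, against 18.1% and 19.6% of all genes. The median of the list was -0.63. Esm1, a proteoglycan of endothelial tip cells, measured 12.64, 12.83 and 12.37 on the Scf-GFP+ arrays and 5.78, 6.47 and 6.23 in whole marrow, a difference of 6.45 ± 0.21 (limma adjusted p = 4.19e-06). Angpt2, the antagonist of Tek, was higher by 3.82 ± 0.32 and the protease Adamts9 by 2.86 ± 0.48 (1.74 with a term for the Xist split). Nr4a1, an immediate early nuclear receptor, Ptgs2, which makes prostaglandins, and Plaur, the urokinase receptor, were lower by -4.82, -4.73 and -4.24. All 3 are also induced in blood cells. Dll4, the Notch ligand of tip cells, measured 6.44 ± 0.14 (SD, n = 3) and 6.68 ± 0.09 and was not called.

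Among 19 measured regulators of Vegfa, 5 were called higher (26.3%) and 2 lower (10.5%), against 9.01% and 7.89% of all genes. Epas1, an oxygen-regulated transcription factor, measured 12.28, 12.10 and 11.89 on the Scf-GFP+ arrays and 6.21, 6.41 and 6.21 in whole marrow, a difference of 5.81 ± 0.14 (limma adjusted p = 2.10e-06). Its relative Hif1a was higher by 1.65 ± 0.23 (limma adjusted p = 0.00218). The osteoblast factor Sp7 was higher by 3.14 ± 0.17, and Zfp36l1, which binds and destabilises Vegfa mRNA, by 1.87 ± 0.15. The genes called lower were Zfp36, a protein of the same class (-1.12 ± 0.15), and the oxygen sensor Egln3 (-1.22 ± 0.29, limma adjusted p = 0.0220). Zfp36 fell short of the fold rule at -0.98 without Scf-GFP+ replicate 2. Egln3 lost its call at -0.92 without whole marrow replicate 1, and at limma adjusted p = 0.0655, 0.0612 and 0.0699 when Scf-GFP+ replicate 2, Scf-GFP+ replicate 3 or whole marrow replicate 3 was omitted. It was also lost with a term for the Xist split (0.119) and against a 2-fold null (1), and its lowest value was 0.00447. Omitting these arrays 1 at a time left 0 or 1 regulator called lower.

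**Figure D4:**
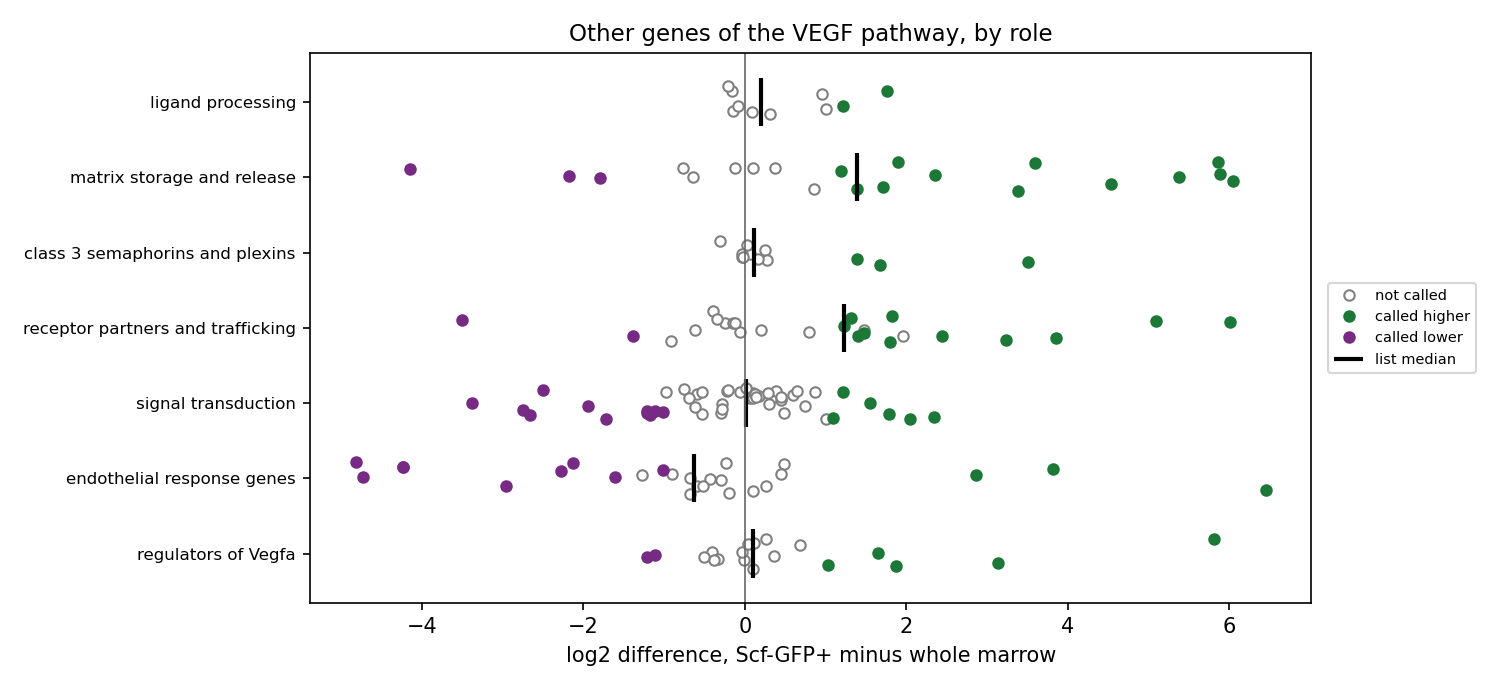
Log2 difference (horizontal axis) of the measured genes of 7 lists by role, as filled points where called (green higher, purple lower) and open points where not, with a black bar at each list's median and vertical scatter for legibility only. Matrix genes and receptor partners have medians of 1.38 and 1.23, and endothelial response genes one of -0.63.

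Some calls were lost against a null of a 2-fold difference with limma's treat. They were those of Ccbe1, Pcsk5, Ccn2, Hpse, Plxnd1, Plcg1, Hif1a, Zfp36 and Egln3 (adjusted p from 0.0898 for Hpse to 1). The calls of the 5 members and of the other called genes named in the paragraphs on the pathway lists were kept. Cdh5, a receptor partner named above only as an endothelial marker (1.40 ± 0.38, limma adjusted p = 0.0345), was not followed singly in the alternatives.

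The genes most like each called member were sought by the distance between 6 array values after centring each gene on its mean. For Vegfc they were Mpdz, Il7 and C6, for Nrp1 they were Sned1, Dlc1 and Stard13, and for Nrp2 they were Pla1a, Tmem176a and Arhgef25. For Vegfa they were Pja1, Pfn2 and Ahnak. For Pgf they were Plxna2, Upk1b and Omd, at 0.65 to 0.71 log2 units, farther than for the other 4 members (0.15 to 0.38). With 2 groups of 3 arrays, such a likeness reflects mainly the size of the group difference.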

How the data were processed

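The values analysed are the log2 intensities that the authors deposited for the 6 arrays, in 1 table and unaltered. Per the submitters' processing notes, RMA, affy and limma were used, with versions and roles not given in the sources used here. Array medians lay between 6.56 and 6.63. RMA values carry no detection call, and the number of arrays limits the precision. Of 28940 rows, 21789 listed 1 gene symbol, 1621 several and 5530 none. Symbols were updated through Entrez identifiers with RefSeq GRCm38.p6, and the highest-mean row stood for each of 999 genes with several rows. Groups followed the sample titles and were compared with limma 3.58.1 (lmFit, eBayes) in R 4.3.3 over 19938 genes with Benjamini-Hochberg adjustment, a fit tested on simulated data. Every adjusted p comes from limma, and ± after a difference is its moderated SE.

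Members, lists and alternatives were chosen with earlier results of these data known. Besides the members, text names the 4 largest called, non-overlapping differences per list and genes of a stated role. Of 171 pathway genes in 7 lists, 162 were measured, of which 42 were called higher and 27 lower. The 17 alternatives covered array left out, replicate block, dim genes, scaling, row choice, spread model, fold rule, array weights and a term for Xist. Promoters came from a RefSeq table of the same assembly, which matched all 9 members. Protein sequences were not used here.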

Additional observations from a re-analysis of the deposited data

How the results depend on the processing

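All 17 alternatives kept 5 members called higher and none lower. The sign of an uncalled member turned in 3 cases. Flt1 was -0.24 with a term for the Xist split, which leaves Scf-GFP+ replicate 3 alone against whole marrow. When 1 array was left out, Vegfb ranged from -0.10 to 0.20 and Kdr from -0.0025 to 0.34. Flt4 had no value without the dimmest 30% of genes, where it was filtered out.

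Same-numbered arrays of the groups did not deviate together (correlations of -0.063, -0.022 and 0.066). Differently numbered arrays gave -0.087 to 0.108, so this check cannot tell whether the arrays are pairs. With the replicate number as a block, 5 members stayed called higher, 1775 genes were called higher and 1563 lower, against 1796 and 1574 without it, and Pgf had a limma adjusted p of 0.00602.

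Counts moved by over 1.5 times in these cases. Against a 2-fold null in limma's treat, 792 genes were called higher and 792 lower, with 0 higher in ligand processing, 7 higher among matrix genes, 6 higher and 1 lower among receptor partners, 3 higher and 5 lower in signal transduction, 5 lower among endothelial response genes, and 3 higher and 0 lower among Vegfa regulators. With no fold minimum, 2758 genes were called higher and 2635 lower, with 5 matrix genes lower, 10 signal transduction genes higher, 14 endothelial response genes lower and 4 Vegfa regulators lower. With a term for the Xist split, 4 ligand processing genes were higher, and 7 signal transduction genes, 5 endothelial response genes and 1 Vegfa regulator were lower. Leaving out 1 array gave 0 to 2 Vegfa regulators lower. Levels near the first quartile of the arrays limit the resolution for Kdr and Flt4.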
